A study of Mus musculus with 19 samples.

Results

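GFP-RFP+ cells, labelled as regulatory CD4 T cells, were compared with GFP-RFP- cells, labelled as conventional CD4 T cells. Both were negative for the signal of the IL-2 reporter. The arrays were chosen by their titles: 5 of GFP-RFP+ and 5 of GFP-RFP- cells, or 10 of the 19 arrays of the series. All mice were adult females on the C57Bl/6 background with the genotype Tg IL-2-GFP x FOXP3mRFP, so both groups carried the green IL-2 reporter and the red Foxp3 reporter, and the cells came from spleen and lymph nodes. Amplified Cy3-labelled cDNA was hybridized to 1-colour whole mouse genome arrays. A cell type tag in the labels calls every sample conventional, whereas the subtype and source of the GFP-RFP+ samples call them regulatory. Whether replicates came from separate animals is not given in the labels, so p-values cover only the spread among these samples, part of which may be technical.

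Regulatory T cells (Treg) restrain the responses of other T cells and depend on the transcription factor Foxp3. They display high amounts of the IL-2 receptor and as a rule make little IL-2 themselves, drawing on IL-2 released by conventional T cells. Foxp3 acts together with signals from the T cell receptor to hold up one set of genes, among them surface receptors such as Ctla4 and Gpr83, and to keep down another, among them genes of naive and conventional T cells.

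GFP-RFP+ arrays detected fewer probes and were dimmer than GFP-RFP- arrays. The percent of probes well above background was 40.2, 41.8, 38.3, 37.8 and 44.9 on GFP-RFP- replicates 1 to 5, and 22, 31.7, 39.4, 24.6 and 30.4 on GFP-RFP+ replicates 1 to 5. GFP-RFP+ replicate 3 lay among the GFP-RFP- arrays and the other 4 lay below all of them. The means were 40.6% ± 2.87 and 29.6% ± 6.78 (SD, n = 5 each), a difference of -10.99 percentage points (exact permutation test, two-sided p = 0.0238, also after Benjamini-Hochberg over 2 tests). With the weaker flag for signal above background the difference was -7.08 points and did not pass (exact permutation p = 0.103).

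The 75th percentile of processed signal, taken over 6610 probes well above background on all 19 arrays, was 14931 ± 2296 units in GFP-RFP- and 7021 ± 3110 units in GFP-RFP+ (SD, n = 5 each). This was a difference of -7910 units and -1.19 on the log2 scale (exact permutation p = 0.0159, 0.0238 adjusted over 2 tests; 5 against 5 cannot go below 0.00794). GFP-RFP+ replicate 3, at 11715 units, lay just above the dimmest GFP-RFP- array, replicate 5, at 11650. Each of slides 1, 2 and 3 held arrays of both groups, but slide 2 a single GFP-RFP+ and slide 3 a single GFP-RFP- array. Within them the difference was -8.55, -8.13 and -17.4 points for detection and -7878, -11645 and -4162 units for brightness. Over all probes, most of them near background, the 75th percentile differed by -137 units. With 5 arrays a group, the array number sets the precision of all that follows.

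**Figure D1:**
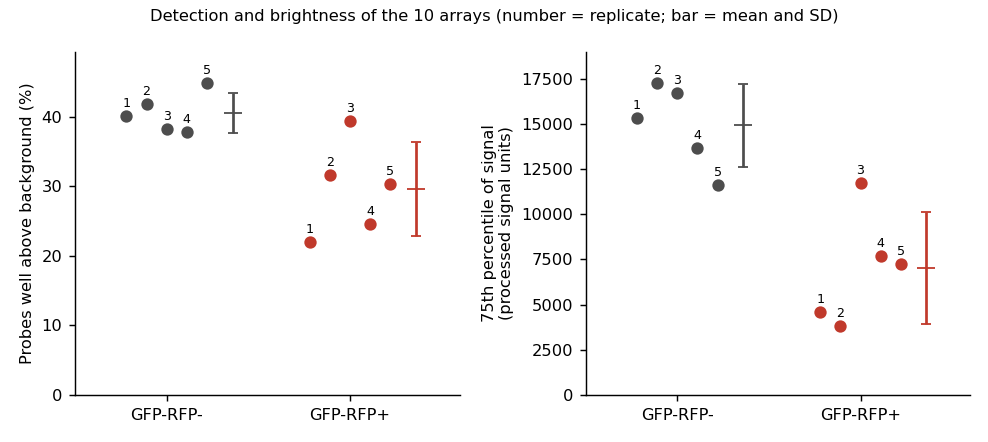
Percent of probes well above background (left) and 75th percentile of processed signal over the reference probes, in signal units (right), for each of the 10 arrays, numbered by replicate, with mean and SD bars. GFP-RFP+ replicate 3 sits near the GFP-RFP- arrays at 39.4% and 11715 units, and the other 4 GFP-RFP+ arrays sit below every GFP-RFP- array in both panels.

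Levels below are log2 processed signal minus the array's own 75th percentile over the reference probes, so that 0 is the signal of a bright gene, and a difference is GFP-RFP+ minus GFP-RFP- on that scale. Calls are genes with an adjusted p under 0.05 (Benjamini-Hochberg over all genes) in a limma model of all 4 populations. Of 20610 genes tested, 351 were called (1.7%), 97 higher (0.471%) and 254 lower (1.23%) in GFP-RFP+ cells, and 4660 had an unadjusted p under 0.05. Higher calls were small, with a median difference of 1.87 (1.45 to 6.82), and lower calls large, with a median of -6.73 (-2.87 to -10.97). Groups did not overlap for 90 of the 97 higher and 203 of the 254 lower calls, against 4.09% and 2.59% of all genes in those directions.

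The number and direction of the calls moved with the scaling. Without any scaling 4 genes were called higher and 2013 lower. The percentile over all probes, in contrast, gave 3508 higher and 518 lower. Quantile normalization gave 2843 and 630, median centring 3112 and 541, normexp background correction 4107 and 739, and the authors' deposited log2 values 2926 and 673. The median difference of all genes was -0.29 under the scaling used here, -1.48 without scaling, 1.02 with the percentile over all probes and 0.23 with quantile normalization. Higher calls made up 27.6% of calls under the scaling used here and 81.3% to 87.1% under these last 5 settings. A fit of the 10 arrays alone called 22 higher and 353 lower (5.87% higher).

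Without scaling the higher calls were lost far more often than the lower ones, while under the other scalings more of the higher calls were kept (94.8% against 85%). In all, 216 of the 254 lower calls were called lower under 6 other scalings or background corrections (1.05% of genes) and the same 216 also without scaling. The 6 other scalings kept 92 of the 97 higher calls (0.446% of genes), but without scaling 4 of them remained, namely Gpr83, Sumf1, Pld5 and 1 probe without a gene name. The median difference of the 97 higher calls without scaling was 0.68 and that of the 254 lower calls was -7.91.

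**Figure D2:**
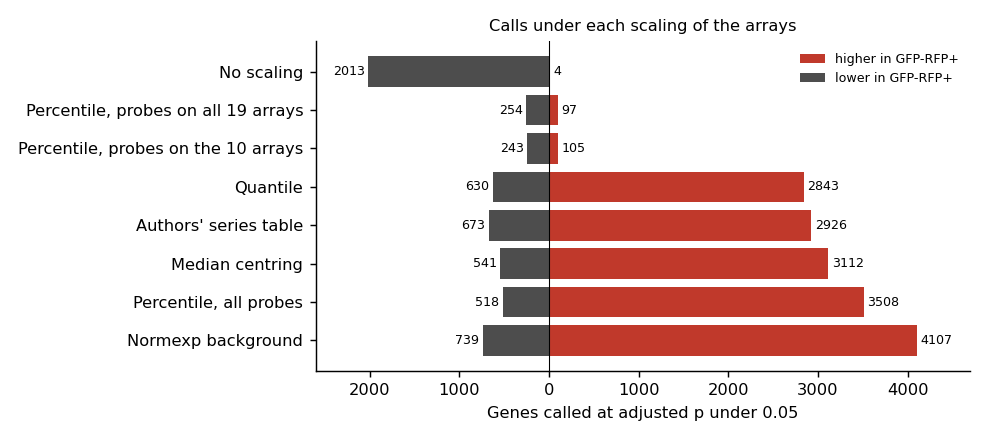
Genes called at an adjusted p under 0.05 (limma) as lower (grey, to the left) and higher (red, to the right) in GFP-RFP+ cells, under 8 ways of scaling the arrays; the axis counts genes. Higher calls range from 4 to 4107 and lower calls from 243 to 2013.

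Single arrays also decided many calls. Leaving out GFP-RFP- replicates 1 to 5 in turn left 85, 91, 101, 212 and 188 calls. Leaving out GFP-RFP+ replicates 1, 2 and 5 left 120, 109 and 133, but leaving out replicate 3 raised the count to 1152 (308 higher, 844 lower) and leaving out replicate 4 to 1166 (753 higher, 413 lower). Within slide 1, 87 genes were called. Slide 2 held a single GFP-RFP+ array and slide 3 a single GFP-RFP- array, so a fit within them cannot decide which genes differ. Through every one of the 10 omissions 6 higher and 56 lower calls were kept. With each array's detection rate as a covariate 5 lower calls were left, Coq10a, Msl3, Timm9, LOC100505348 and Gm16223, and without the arrays under 30% detected 7 higher and 20 lower calls were left.

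The lower calls were mostly genes that GFP-RFP+ arrays failed to detect. Of 11261 genes above background on all 5 GFP-RFP- arrays, GFP-RFP+ replicates 1 to 5 missed 3405 (30.2%), 2619 (23.3%), 600 (5.33%), 2517 (22.4%) and 1966 (17.5%). Each GFP-RFP- array, set against the other 4, missed between 2.98% and 6.35%. Replicate 3 again lay inside the GFP-RFP- range and the other 4 far above it. In bulk samples such as these, fewer cells of a type and less RNA per cell cannot be told apart.

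All 5 GFP-RFP+ arrays detected 6274 of these 11261 genes (55.7%), and none detected 166 (1.47%; 0.805% of all genes tested). The reverse pattern, present on each GFP-RFP+ array but absent from the GFP-RFP- arrays, occurred for 1 gene (0.00485%). Every GFP-RFP- array detected 241 of the 254 lower calls; 80 of those were detected on no GFP-RFP+ array, 75 on 1, 49 on 2, 18 on 3, 11 on 4 and 8 on all 5. The higher calls were different, since 72 of 97 were above background on all 10 arrays.

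Detection did not rise steadily with level. When the 11261 genes were split by their GFP-RFP- level into 5 classes of equal size, all 5 GFP-RFP+ arrays detected 45.7% of the lowest class, 65.9% of class 2, 49.1% of class 3, 41.7% of class 4 and 76.2% of the highest. From the lowest to the highest class, 0, 0.533%, 2.75%, 6.17% and 1.24% of genes were called lower. Class 4, at levels of -2.83 to -0.64, had a median difference of -2.65, but of -0.39 when only its genes above background on all 10 arrays were taken. What part the lower detection and brightness of the GFP-RFP+ arrays had in any single difference was not tested.

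**Figure D3:**
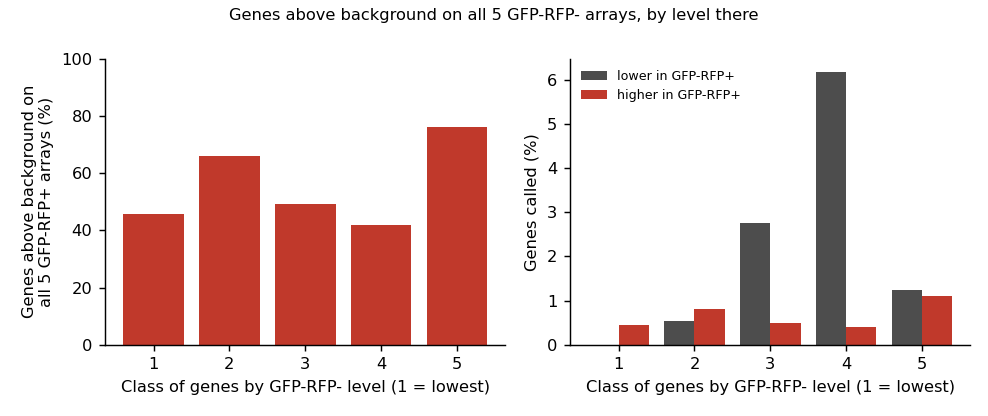
Genes above background on all 5 GFP-RFP- arrays, in 5 classes of equal size by their mean GFP-RFP- level (1 = lowest): the percent above background on all 5 GFP-RFP+ arrays (left) and the percent called lower or higher in GFP-RFP+ cells (right). Class 4 has both the smallest share detected, 41.7%, and the largest share called lower, 6.17%.

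The gene of the red reporter was read by 1 probe, and the probes of the Treg receptors that rose are shown with it as the first 30 of their 60 bases. Positions of whole probes are on mm9, all on the plus strand: X:7172301-7172360 for Foxp3, 9:14673871-14673930 for Gpr83 and 1:40522187-40522246 for Il1rl1.
Foxp3: attatgtgttggagtgtgcctgaacagctc
Gpr83: ctgaactacacgtgtccatgtagattgtaa
Il1rl1: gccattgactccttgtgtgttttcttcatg

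Foxp3 did not separate the groups. Its level was -8.5, -8.28, -7.85, -7.49 and -7.34 on GFP-RFP- replicates 1 to 5 and -5.91, -5.96, 0.25, -8.64 and -6.48 on GFP-RFP+ replicates 1 to 5. GFP-RFP+ replicate 3 was bright (14000 signal units), replicates 1, 2 and 5 were above every GFP-RFP- array by little, and replicate 4 was the lowest of all 10, although the probe was flagged as well above background throughout. The difference was 2.55 ± 1.1 (SE; limma, adjusted p = 0.19), 1.14 without replicate 3 and 3.37 without replicate 4, neither called. Within slide 1 it was 5.35, not called, and within slides 2 and 3, each with a single array of a group, it was 1.92 and -0.21. Foxp3 was called under the 5 scalings that shift most genes upwards, at 2.39 to 4.50. The Foxp3 signal of the array labelled GFP-RFP+ replicate 4 thus went against its label, and values without it are given beside those of the main Treg and naive T cell genes and lists; groups are named by their labels throughout.

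Il2, the growth factor gene of the green reporter, was near background in both groups, which the sort had selected as GFP-. Of the GFP-RFP- arrays 2 detected it and of the GFP-RFP+ arrays 0, with a difference of -2.33 ± 1.96 (SE; limma, adjusted p = 0.5).

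Gpr83 and Il1rl1 were the members of the Treg signature that rose, 2 of 39 measured, against 0.471% of all genes called higher. Gpr83, an orphan G protein-coupled receptor long used as a Treg marker, was at -11.35, -11.85, -11.3, -11.78 and -12.05 on GFP-RFP- and at -9.95, -2.39, -2.69, -1.71 and -7.48 on GFP-RFP+ replicates 1 to 5. No GFP-RFP- array and 4 of the 5 GFP-RFP+ arrays detected it, and the groups did not overlap. The array labelled GFP-RFP+ replicate 4 was the highest. The difference was 6.82 ± 1.47 (SE; limma, adjusted p = 0.033), or at least 23-fold higher. Here and below such a bound sets the brighter group's mean against a floor, in each array of the dimmer group the higher of its faintest signal well above background and the probe's own. The call was lost without any 1 of 6 arrays (GFP-RFP- replicates 1 to 5 and GFP-RFP+ replicate 2); without GFP-RFP+ replicate 4 the difference was 6.04 and still called. It was also lost in a limma fit of the 10 arrays alone (adjusted p = 0.0558), with the replicate block (0.0639), without arrays under 30% detected (0.0509) and with each array's detection rate as a covariate (0.212). With 1 common floor for all arrays, the highest of their faintest signals, the difference was 2.87 and not called (limma, adjusted p = 0.101), so that the bound depends on the floor chosen.

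Il1rl1, which encodes the IL-33 receptor ST2 of tissue Treg, was at -7.72, -7.5, -7.93, -7.32 and -7.67 on GFP-RFP- and at -6.32, -4.19, -6.23, -4.08 and -6.16 on GFP-RFP+ replicates 1 to 5. All 10 arrays measured it above background, every GFP-RFP+ array above every GFP-RFP- array. The difference was 2.23 ± 0.5 (SE; limma, adjusted p = 0.037). Without scaling it was 1.04 and not called (limma, adjusted p = 0.13). Omitting a single array ended the call in 7 of 10 cases, but not for GFP-RFP+ replicate 4 (1.90). The call was also lost in a limma fit of the 10 arrays alone (adjusted p = 0.094), without arrays under 30% detected (0.0773) and with the detection rate as a covariate (1.74, adjusted p = 0.539).

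The other 37 members of the Treg signature did not pass. The list's median was -0.07, with 18 members above and 21 below 0, close to the -0.29 of all genes; it was 1.23 with the percentile over all probes, 0.27 with quantile normalization and -1.26 without scaling. Ctla4, the inhibitory receptor that Treg carry in abundance, was at -0.49 on GFP-RFP+ replicate 3 and at -4.68 to -10.21 on the other 4, against -0.6 to -6.3 on GFP-RFP- arrays. Its difference was -3.64 ± 1.98 (SE; limma, adjusted p = 0.28). Il2ra, the alpha chain of the IL-2 receptor, stood out on GFP-RFP+ replicate 3 and GFP-RFP- replicate 2 at -3.43 and -5.64 and was at -9.81 or below on the other 8 arrays (difference 0.89, adjusted p = 0.81 by limma). Ikzf2, which encodes Helios, was at -4.76 and -4.38 on GFP-RFP+ replicates 3 and 5, at -7.2 on GFP-RFP- replicate 2 and at -9.61 or below elsewhere (difference 2.61, adjusted p = 0.5 by limma). Ctla4, Il2ra and Ikzf2 were therefore not high across the GFP-RFP+ group. Il2ra and Ikzf2 stood out on a few arrays of both groups, and Ctla4 on GFP-RFP+ replicate 3 was near the brightest GFP-RFP- array. Without GFP-RFP+ replicate 4 the differences were -2.66 for Ctla4, 1.39 for Il2ra and 3.43 for Ikzf2, none called, and the list's median was -0.05, against -0.10 for all genes.

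Among suppressive molecules, 12 measured, 6 were higher and 6 lower, none called, with a median of 0.25 (-0.94 without scaling). Foxp3 partners and Treg transcription factors had 28 of 38 members below 0 and a median of -1.38. The IL-2 receptor, JAK and STAT5 list had 20 of 28 below 0 and a median of -1.46. Of all genes 57.1% were below 0. Over members above background on all 10 arrays the medians of the 3 lists were 1.02, -0.50 and 0.23 (3, 13 and 8 members). For all such genes the median was 0.21. Without GFP-RFP+ replicate 4 the medians of these 3 lists were 0.41, -1.45 and -1.53. With all arrays neither of the last 2 held a call. Stat5b, a transcription factor downstream of the IL-2 receptor, came nearest at -5.35 ± 1.35 (SE; limma, adjusted p = 0.052).

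**Figure D4:**
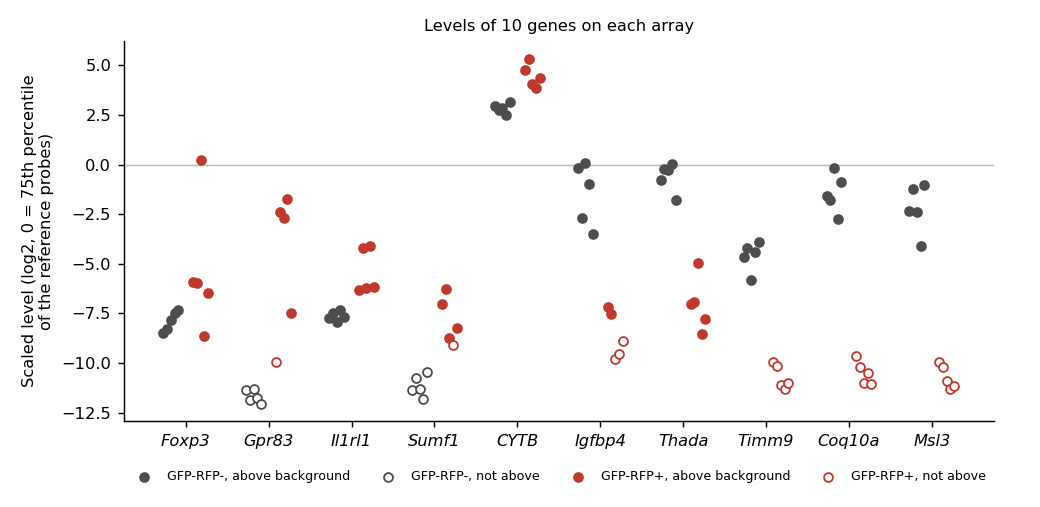
Scaled log2 level of 10 genes on each of the 10 arrays, GFP-RFP- in grey and GFP-RFP+ in red; open circles mark arrays where the probe was not well above background, and 0 is the 75th percentile of the reference probes. Foxp3 overlaps between the groups, whereas Gpr83, Il1rl1, Sumf1 and CYTB lie higher and Igfbp4, Thada, Timm9, Coq10a and Msl3 lie lower on every GFP-RFP+ array.

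Genes that Foxp3 is known to hold down lay mostly lower. Of 23 measured Treg-repressed genes, 19 were below 0, against 57.1% of all genes, with a median of -2.49 (-1.18 with the percentile over all probes and -3.68 without scaling, against -0.29, 1.02 and -1.48 for all genes). A single member fell (4.35%, against 1.23% of all genes), Igfbp4, which encodes an insulin-like growth factor binding protein and marks naive conventional T cells. Its probe lies at 11:98913334-98913393 on the plus strand of mm9 and begins as follows.
Igfbp4: gagaagagaaacctcattcttggagtgaga

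Igfbp4 was at -0.18, -2.67, 0.1, -0.98 and -3.52 on GFP-RFP- and at -7.16, -7.52, -9.8, -9.55 and -8.91 on GFP-RFP+ replicates 1 to 5. The dimmest GFP-RFP- array was well above the brightest GFP-RFP+ array, and here GFP-RFP+ replicate 3 was the lowest of all. The difference was -7.14 ± 1.17 (SE; limma, adjusted p = 0.0094), and the call was kept through every omission of an array. Without GFP-RFP+ replicate 4 the list's median was -2.06, and Igfbp4 and Lef1 were called. That fit called 413 of the 20610 genes lower, against 254 with all arrays.

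Lef1, a transcription factor of naive T cells, differed by -4.50 (adjusted p = 0.097) and its partner Tcf7 by -1.72 (adjusted p = 0.2), both short of the limma threshold, although no GFP-RFP+ array reached the GFP-RFP- range of Tcf7. Without GFP-RFP+ replicate 4 Lef1 differed by -5.78 and was called, and Tcf7 by -2.06 and was not (limma, adjusted p = 0.03 and 0.12). Of 19 genes of naive and recirculating T cells 17 were below 0, with a median of -2.06. Igfbp4, shared with the list above, was the one called (5.26%, against 1.23% of all genes). Leaving out GFP-RFP+ replicate 4 gave a median of -2.64, with Igfbp4 and Lef1 called, in a fit with 413 lower calls among all genes. Ccr7, a lymph node homing receptor, was inside or near the GFP-RFP- range on GFP-RFP+ replicates 3 and 4 at -3.12 and -1.65 and at -9.91 or below on the other 3. Its difference of -4.33 did not pass (limma, adjusted p = 0.18). Without GFP-RFP+ replicate 4 the difference was -5.71, also not called (limma, adjusted p = 0.059).

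Most genes of T cell receptor signalling had lower levels. In the list of the receptor complex and its proximal signalling, 27 of 38 measured members were below 0, against 57.1% of all genes, and 2 were called, against 1.23% of all genes called lower, with a median of -2.26 (-0.95 with the percentile over all probes). Over its 18 members above background on all 10 arrays the median was 0.13. Rasgrp1, the exchange factor that couples the receptor to Ras, was at -3.94, -2.85, -1.96, -2.52 and -1.3 on GFP-RFP- replicates 1 to 5 and at -9.94, -10.25, -11.03, -11.24 and -11.09 on GFP-RFP+. No GFP-RFP+ array detected it, and it was at least 63.4-fold lower (limma, adjusted p = 0.022). Csk, the kinase that holds Lck inactive, fell by 6.00 ± 1.3 (SE; limma, adjusted p = 0.033) and was above background on 5 GFP-RFP- arrays and 1 GFP-RFP+ array. Rasgrp1 lost its call in 2 and Csk in 7 of the 10 omissions.

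Co-receptors and pathways further downstream held single calls. For reference, 57.1% of all genes were below 0 and 1.23% were called lower. The CD28 family and co-receptors had 16 of 21 members below 0, a median of -3.48, and 1 call, Cd48, the ligand of CD2 and 2B4, which fell by 7.25 ± 1.67 (SE; limma, adjusted p = 0.039). Of 28 PI3K, mTOR and Foxo genes 23 were below 0, median -2.61, and Rictor, the defining subunit of mTOR complex 2, was at least 18.1-fold lower (limma, adjusted p = 0.03) with no GFP-RFP+ array above background. Of 27 Ras and MAP kinase genes 23 were below 0, median -2.85, and Map2k4, a kinase upstream of JNK, was at least 85.9-fold lower (limma, adjusted p = 0.013). The Map2k4 call survived every omission, whereas those of Cd48 and Rictor were lost in 7 of 10. Over members above background on all 10 arrays the median was 0.32 for the CD28 family and co-receptors (3 members). It was -1.43 for PI3K, mTOR and Foxo (4) and -1.09 for Ras and MAP kinase genes (2).

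Among adhesion molecules Itgb1, the integrin beta 1 chain, fell by 7.19 and Pecam1, the adhesion molecule CD31, by 8.10 (limma, adjusted p = 0.033 and 0.0092). Their list had 14 of 20 members below 0, against 57.1% of all genes, and a median of -1.78. Called lower were 10.0% of it, against 1.23% of all genes. Pecam1 was at 0.93, 0.73, -0.9, -2.41 and -3.05 on GFP-RFP- and at -9.7, -3.25, -11.04, -11.23 and -9.99 on GFP-RFP+ replicates 1 to 5, so that GFP-RFP+ replicate 2 came close to the GFP-RFP- range without entering it. Anxa1, an inflammation-resolving annexin of effector-memory cells, was at least 9.65-fold lower (limma, adjusted p = 0.045), with overlapping groups.

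Genes of the type I interferon response showed one of the wider gaps in detection. Of 28 measured, 21 were below 0, against 57.1% of all genes. The average member was above background on 4.18 of the 5 arrays in the GFP-RFP- group but 2.29 in the GFP-RFP+ group, against 3.87 and 2.97 for all genes. The median was -2.84 (-1.53 with the percentile over all probes, -2.24 with quantile normalization and -4.03 without scaling), but 1.12 over the 3 members above background on all 10 arrays. The members that fell (7.14%, against 1.23% of all genes) were Ifit1 and Ifit2, which encode interferon-induced proteins that act on foreign RNA and translation.

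Ifit1 is shown with its promoter because interferon-stimulated genes carry a known response element there. The stretch runs from 134 to 46 bases before the transcription start (RefSeq, GRCm38.p6, chr19:34640755-34640843, plus strand), and the 2 matches to the response element, GAAA and after any 2 bases again GAAA, searched on both strands, are in capitals, here read on the other strand.
Ifit1: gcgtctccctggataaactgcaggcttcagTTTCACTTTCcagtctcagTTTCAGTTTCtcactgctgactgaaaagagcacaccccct

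The motif lay in the promoter window of 11 of the 22 interferon genes with a promoter in the table (50%), against 3.99% of 27025 genes with windows of the same length. Of these 11 genes 8 were lower, and of the 11 without a match also 8, so the sign of the difference did not follow the motif. Ifit1 was at -3.25, -2.62, -0.97, -2.77 and -3.74 on GFP-RFP- and at -9.95, -9.38, -2.71, -11.37 and -11.19 on GFP-RFP+ replicates 1 to 5. Ifit2 was at -2.07, -0.51, -2.86, -1.68 and -1.82, and at -9.98, -10.27, -2.78, -11.41 and -8.45. Both genes were at the GFP-RFP- level on GFP-RFP+ replicate 3 and far lower on the other 4 arrays. Ifit1 fell by 6.25 ± 1.34 and Ifit2 by 6.79 ± 1.61 (SE; limma, adjusted p = 0.033 and 0.042), calls lost in 7 and 8 of the 10 omissions.

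Nuclear genes of the respiratory chain lay lower almost throughout. Of 76 measured members 69 were below 0, against 57.1% of all genes, and 6 were called (7.89%, against 1.23%). The median was -2.76 (-1.46 with the percentile over all probes, -2.30 with quantile normalization, -3.95 without scaling). Over the 14 members above background on all 10 arrays the median was -0.66, against 0.21 for all such genes. Among those called were subunits of complex I (Ndufa3, Ndufa6, Ndufs1, Ndufs8) and of complex II (Sdhb).

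Ndufa3, an accessory subunit, was at -1.92, 0.25, -5.32, -0.96 and -0.8 on GFP-RFP- and at -8.21, -7.75, -8.07, -9.42 and -8.69 on GFP-RFP+ replicates 1 to 5. Every GFP-RFP+ array lay below every GFP-RFP- array, though GFP-RFP- replicate 3 stood apart from its group. It fell by 6.68 ± 0.98 (SE; limma, adjusted p = 0.0059), and its other probe fell by 6.16 (adjusted p = 0.0087). Ndufs1, the largest subunit, was at 0.91, 0.26, 1.09, 0.19 and 0.45 on GFP-RFP- and at -9.93, -10.14, -0.15, -6.4 and -8.34 on GFP-RFP+ arrays. GFP-RFP+ replicate 3 was again next to the GFP-RFP- range, yet the difference of -7.58 ± 1.42 (SE; limma, adjusted p = 0.019) was called without any 1 of the 10 arrays.

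The GFP-RFP+ arrays detected none of Ndufs8, Ndufa6 and Sdhb. Ndufs8 was at least 298-fold, Ndufa6 at least 124-fold and Sdhb at least 85.9-fold lower (limma, adjusted p = 0.026, 0.046 and 0.022). The second Sdhb probe differed by -0.83 and was not called.

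The shares in the next lists compare with 57.1% of all genes below 0 and 1.23% called lower. Mitochondrial ribosomal proteins had 66 of 72 members below 0 and a median of -3.36, and 2 fell (2.78%): Mrps31, at least 133-fold, and Mrpl57, by 5.82. Over their 9 members above background on all 10 arrays the median was -0.94. In the mitochondrial import list 21 of 29 were below 0, median -1.83, with Timm9 and Timm44 called (6.90%). Of 20 genes of cholesterol synthesis 18 were below 0, median -3.18, and 2 fell (10.0%), while the 2 members above background on all 10 arrays were both higher. Sqle, which encodes squalene epoxidase, was at -4.34, -2.79, -1.86, -1.64 and -2.35 on GFP-RFP- and at -9.97, -10.28, -9.18, -10.13 and -11.07 on GFP-RFP+ replicates 1 to 5. No GFP-RFP+ array detected it, and it was at least 59.8-fold lower (limma, adjusted p = 0.0093). Insig1, a sterol-regulated brake on the same pathway, fell by 5.98 ± 1.12 (SE; limma, adjusted p = 0.019). Hprt, the purine salvage enzyme often used as a reference gene, was at least 11.4-fold lower (limma, adjusted p = 0.012), from GFP-RFP- levels of -3.1 to -6.72 to GFP-RFP+ levels of -8.41 to -11.1.

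Transcripts of the mitochondrial genome went the other way. All 13 tested were higher, by 1.35 to 1.99, against 42.9% of all genes above 0. Of the 13, 4 were called, against 0.471% of all genes called higher. They were CYTB, a subunit of complex III, ATP6 and ATP8, subunits of the ATP synthase, and ND3, a subunit of complex I (limma, adjusted p = 0.039, 0.045, 0.049 and 0.048). The file places the ND3 probe on chromosome 1 and the other 12 on the mitochondrial genome. CYTB was at 2.94, 2.73, 2.87, 2.51 and 3.14 on GFP-RFP- and 4.76, 5.34, 4.04, 3.88 and 4.37 on GFP-RFP+ replicates 1 to 5, a bright gene without overlap between the groups. Without scaling the 13 differed by 0.17 to 0.80 and none was called. With quantile normalization CYTB differed by 0.81, ATP6 by 0.47 and ATP8 by 0.67, not called, and ND3 by 2.16, called. Each of the 4 calls was lost in 8 of the 10 omissions of an array.

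The machinery of RNA and protein synthesis was lower in most lists, apart from the ribosome itself. The gap was smaller over members above background on all 10 arrays. Their medians were -0.51 for translation factors (15 members), -0.26 for the spliceosome (19) and 0.36 for cytosolic ribosomal proteins (82). For all such genes the median was 0.21. In RNA exosome and decay it was -1.64 (5 members), against -1.61 over the whole list. Cytosolic ribosomal proteins, 85 measured and above background on 4.94 of 5 arrays in both groups on average, had a median of 0.36, with 60 members higher, 25 lower and none called; the median was -0.17 with quantile normalization and -0.82 without scaling. Rps6 was at 2.23 to 2.63 on GFP-RFP- and at 2.48 to 3.18 on GFP-RFP+ arrays (difference 0.31 ± 0.37, SE). All 10 arrays detected 82 of the 85.

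Translation initiation and elongation factors had 45 of 53 members below 0, a median of -3.02 and 4 calls (7.55%), Eif1b, Eif2b5, Eif3c and Eif3i. Of all genes 57.1% were below 0 and 1.23% were called lower. Eif3i, an initiation factor subunit, was at 0.65, 1.07, 1.14, 0.81 and 0.37 on GFP-RFP- and at -6.97, -6.4, -0.84, -6.52 and -6.25 on GFP-RFP+ replicates 1 to 5. All 10 arrays measured it above background, 4 GFP-RFP+ arrays lay far below, and replicate 3 lay just under the GFP-RFP- range. It fell by 6.20 ± 1.33 (SE; limma, adjusted p = 0.033), a call lost in 8 of the 10 omissions. The second probe of Eif3c differed by 0.85 and was not called.

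In the spliceosome list 52 of 67 members were below 0, median -2.30, and 5 fell (7.46%), Cwc15, Prpf38a, Prpf8, Sf3b6 and Snrpb. The shares over all genes were 57.1% and 1.23%. Sf3b6, the branch point subunit of SF3b, was at least 537-fold lower (limma, adjusted p = 0.029). Exosc8, a core subunit of the RNA exosome, was at -0.05, -0.14, 0.05, 0.1 and -0.77 on GFP-RFP- and at -9.98, -10.29, -11.06, -11.27 and -11.09 on GFP-RFP+ replicates 1 to 5. No GFP-RFP+ array detected this otherwise bright gene, which was at least 323-fold lower (limma, adjusted p = 0.0029) and kept its call through every omission.

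Of 47 proteasome genes 41 were below 0, median -2.26, and 3 fell (6.38%), against 57.1% and 1.23% of all genes. Over the 13 members above background on all 10 arrays the median was -0.68. Psmd8, a lid subunit, was at -1.55, -1.46, -1.28, -0.23 and -1.31 on GFP-RFP- and at -9.93, -9.45, -10.94, -11.29 and -11.13 on GFP-RFP+ replicates 1 to 5. The groups were far apart, at least 161-fold (limma, adjusted p = 0.0034). Psmb5, a catalytic subunit, fell by 6.00, and its second probe differed by -6.64 (limma, adjusted p = 0.033 and 0.048). Ubiquitin-conjugating and cullin genes had 41 of 51 below 0, median -2.12, with Cul1, Cul4a and Cops7a called (5.88%).

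Vesicle transport, the largest list, had 144 of 182 members below 0, median -1.68, and 7 lower calls (3.85%), against 57.1% and 1.23% of all genes. Among them Rab2a, a small GTPase of the early secretory route, fell by 7.43 and Vps33b, of the endosomal tethering machinery, was at least 162-fold lower (limma, adjusted p = 0.019 and 0.018), both kept through every omission. Chaperones and heat shock genes had 54 of 76 below 0 and a median of -1.06, but 0.25 with the percentile over all probes. Their 1 lower call (1.32%) was near the share of all genes. Of the 51 lists 48 had a median below 0 and 45 a median below that of all genes; with the percentile over all probes 33 were below 0 and again 45 below all genes. A median below that of all genes was thus the rule among lists of named genes and particular to none of them.

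**Figure D5:**
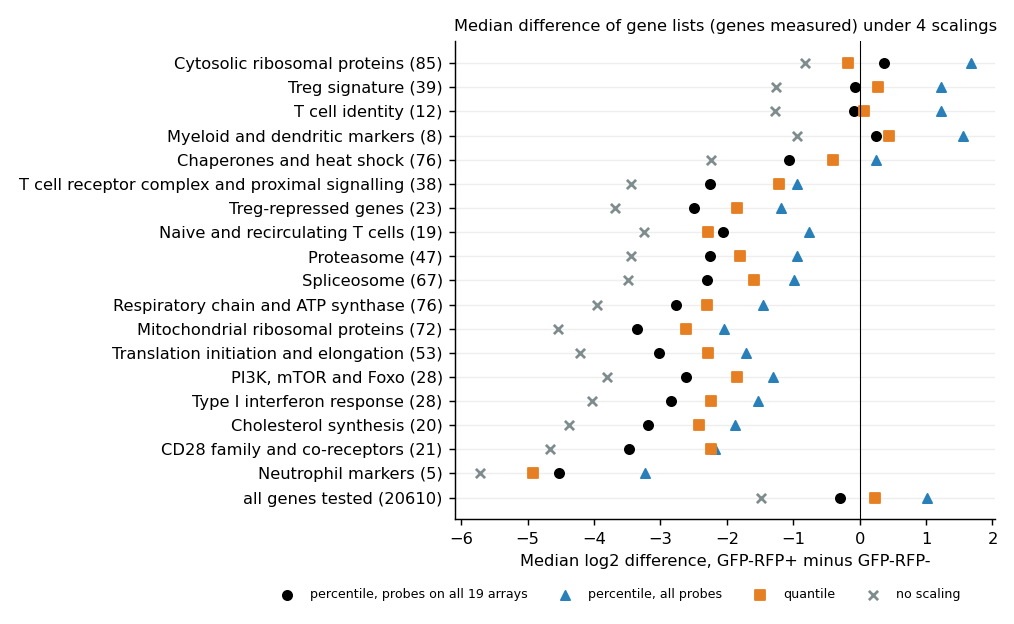
Median log2 difference, GFP-RFP+ minus GFP-RFP-, of 18 gene lists and of all genes tested, under 4 scalings; numbers in brackets are genes measured. Cytosolic ribosomal proteins lie at 0.36, the respiratory chain at -2.76 and all genes at -0.29 under the main scaling, and every list shifts to the right with the percentile over all probes and to the left without scaling.

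Genes above background on all 10 arrays were fitted again on their own, since no difference there rests on an undetected signal. Of 6408 such genes 477 were called higher (7.44%) and 63 lower (0.983%), and their median difference was 0.21. Faint genes enter this set more readily if they are high on the dimmer GFP-RFP+ arrays. In the lowest of the 5 level classes 94.3% of genes in the set were higher. Their median was 0.99, against 0.40 for the whole class. In classes 2 to 5 the median of the set was 0.21, -0.24, -0.39 and 0.23. Thada, a gene disrupted in some thyroid adenomas, was at -0.76, -0.23, -0.25, 0.02 and -1.8 on GFP-RFP- and at -7.02, -6.9, -4.97, -8.56 and -7.78 on GFP-RFP+ replicates 1 to 5. The groups were far apart and the difference, -6.44, was called in both fits (limma, adjusted p = 0.016 over all genes and 0.012 here), but the other Thada probe differed by -0.40 and was not called.

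Ap1g1, the gamma subunit of the AP-1 clathrin adaptor, was at -0.76 to -2.58 on GFP-RFP- and at -4.44 to -6.94 on GFP-RFP+ arrays and fell by 3.81 (limma, adjusted p = 0.023 over all genes). In this fit the cytosolic chaperone Hsp90ab1 fell by 3.92 and Dnaja1, of the same gene list, by 2.43 (limma, adjusted p = 0.044 and 0.038). The malate dehydrogenase Mdh1 fell by 3.1 and the initiation factor subunit Eif3e by 3.15 (limma, adjusted p = 0.028 and 0.028). The last 4 were called here and not among all 20610 genes, and they were named after their values were seen. Of the 477 higher calls, those of usual symbol with the smallest p included Pnma2, Ermn, Dclre1b, Fam178b, Zbtb26 and Ddx25, which were also called among all genes. All 13 transcripts of the mitochondrial genome were called higher in this fit (limma, adjusted p = 0.012 to 0.021), against 7.44% of its genes.

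Few of the genes called higher had a usual symbol. Of the 97 higher calls 35 had one (36.1%), against 184 of the 254 lower calls (72.4%) and 56.9% of all genes; 36 were probes without a gene name and 14 intergenic intervals. The median GC content of their probes was 38.3%, against 45% for lower calls and for all genes. Other probes of the same genes had the same sign in 15 of 26 cases (57.7%) for higher calls and in 89 of 103 (86.4%) for lower calls, against 65.2% for all genes. None of the 26 was called, while 17 of the 103 were, all lower.

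Sumf1, which encodes the enzyme that activates sulfatases, was at -11.38, -10.74, -11.31, -11.8 and -10.46 on GFP-RFP- and at -7.01, -6.29, -8.76, -9.1 and -8.24 on GFP-RFP+ replicates 1 to 5. The groups did not overlap, but even the GFP-RFP+ signals were faint, at 14.1 to 48.9 units, and 4 of 5 were above background against none. It was at least 2.81-fold higher (limma, adjusted p = 0.0069), was called without scaling too (adjusted p = 0.0079), and kept its call through every omission. Pld5, a phospholipase D relative, was at least 2.16-fold higher (limma, adjusted p = 0.02) and lost its call in 1 omission.

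Dclre1b, the telomere nuclease Apollo, was at -5.95, -6.08, -6.28, -5.57 and -5.98 on GFP-RFP- and at -3.36, -2.7, -4.4, -4.62 and -3.76 on GFP-RFP+ replicates 1 to 5. It was above background on all 10 arrays, without overlap, and rose by 2.20 ± 0.44 (SE; limma, adjusted p = 0.023), a call lost without scaling (1.01, adjusted p = 0.061) and in 5 of the 10 omissions. The other named genes with the smallest p, Olfr65, Zbtb26, Ermn, Pnma2, Fam178b and Ddx25, rose by 1.69 to 2.72, and none of the 6 was called without scaling.

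Coq10a, Msl3 and Timm9, the lower genes with the smallest p, were all or none by the probes used. Coq10a and Timm9 act in mitochondria, in coenzyme Q function and in protein import, and Msl3 encodes a chromatin reader of the complex that acetylates histone H4. Their probes lie on the minus strand of mm9 at 10:127800356-127800415, 12:72226471-72226530 and X:165092103-165092162, and begin as follows.
Coq10a: tagtaacttcctgacacagagatactggct
Timm9: gggaacctacaataaacttacagaaacctg
Msl3: gcctgtcttgtttgagattttacagccata

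Coq10a gave 5100, 5020, 15000, 2040 and 6260 signal units on GFP-RFP- and 5.74, 3.23, 5.71, 5.29 and 3.38 on GFP-RFP+ replicates 1 to 5. Msl3 gave 3040, 7370, 3150, 809 and 5730 units, and 4.66, 3.27, 6.14, 2.99 and 3.17. Timm9 gave 599, 938, 300, 640 and 775 units, and 4.68, 3.39, 5.25, 3.06 and 3.56. All 3 were far above background on every GFP-RFP- array and at background on every GFP-RFP+ array, the bright replicate 3 included. They were at least 134-fold, 77.8-fold and 14.9-fold lower (limma, adjusted p = 2.2e-07, 4.1e-07 and 2.8e-05). With the common floor the log2 differences were -5.62, -4.84 and -2.45, smaller than these bounds but still called. With each array's detection rate as a covariate the differences were -9.65, -7.84 and -6.67. Within slides 1, 2 and 3 they were -9.45, -7.95 and -9.89 for Coq10a. For Msl3 they were -8.05, -7.54 and -10.22, and for Timm9 -5.29, -5.83 and -7.24. Slides 2 and 3 each held a single array of a group. The other probe of Timm9 was above background on 2 arrays of each group and differed by 1.46, not called.

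Of the lower calls with a usual symbol 39 were kept through every omission, among them Tmem50a, Atp6ap1, Paxbp1, Jmjd6, Zw10 and Tspan14. Zw10, a kinetochore and vesicle tethering protein, was at 0.63, -0.29, 0.61, -0.26 and -1.2 on GFP-RFP- and at -9.89, -10.22, -11.08, -11.27 and -10.48 on GFP-RFP+ replicates 1 to 5. It was undetected on all GFP-RFP+ arrays and at least 337-fold lower (limma, adjusted p = 0.0059). Atp6ap1, an accessory subunit of the vacuolar proton pump, was at least 130-fold lower (limma, adjusted p = 0.0037). Jmjd6, an oxygenase that acts on arginine and lysine residues, fell by 6.78 ± 1.0 (SE; limma, adjusted p = 0.0059), with GFP-RFP- replicate 5 at -6.19, near the GFP-RFP+ range of -6.78 to -9, and the other 4 between -1.05 and 0.91.

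The cells carried T cell markers in both groups, and markers of other blood cells were also present. T cell identity genes, 12 measured, were all above background on every GFP-RFP- array and 9 to 12 of them on GFP-RFP+ arrays; their median was -0.09 (1.22 with the percentile over all probes and -1.27 without scaling) and none was called. Cd4 was at -0.64 to -1.75 on GFP-RFP- and at -0.57 to -5.67 on GFP-RFP+ arrays (difference -2.21 ± 0.9, SE; limma, adjusted p = 0.17).

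Between 6 and 8 of 8 B cell markers were detected on each GFP-RFP- array and 4 to 7 on each GFP-RFP+ array, with summed signals of 11200 to 36100 and 858 to 22500 units. Of the 8 markers 6 were below 0, with a median of -1.24, and 1 was called lower (12.5%), against 57.1% and 1.23% of all genes. Fcer2a, a low-affinity IgE receptor, differed by 2.48 and the transcription factor Pax5 by 0.70, neither called. The called marker, Cd79b, a chain of the B cell receptor, was at -0.35, -1.13, -0.39, -3.26 and -1.21 on GFP-RFP- and at -8.19, -9.5, -1.07, -8.41 and -10.88 on GFP-RFP+ replicates 1 to 5, and fell by 6.34 (limma, adjusted p = 0.043). Replicate 3 again carried the GFP-RFP- level. Of 5 neutrophil markers 4 or 5 were above background on GFP-RFP- and 2 or 3 on GFP-RFP+ arrays, with summed signals of 27100 to 79600 and 799 to 27700 units; all 5 were below 0, median -4.53, and Ngp came nearest to a call at -7.13 (limma, adjusted p = 0.054). Myeloid and dendritic markers were lower in 2 of 8 cases, with summed signals of 108000 to 147000 and 77100 to 169000 units. The part of these cells in the other differences was not tested.

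The matching comparison among GFP+ cells, GFP+RFP+ minus GFP+RFP-, shares no array with this one. It called 42 genes (0.204%), and its arrays differed in brightness by -1.25 on the log2 scale, against -1.19 here. Of the 97 genes higher here 96 were higher there (99.0%) and 10 were called; of the 254 lower here 209 were lower there (82.3%) and 15 were called. Among all genes the sign was shared by 69.7%. Without scaling, 81 of the 97 stayed above 0 there. The medians there were 1.77 and -2.55 for the 2 sets, with 0.22 for all genes.

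The genes lower in both included Timm9 (-6.10 here and -6.60 there), Tspan14 (-7.01 and -9.25), Jmjd6 (-6.78 and -7.33), Tmem50a (-9.14 and -8.53), Pecam1 (-8.10 and -8.52), Ndufs1 (-7.58 and -9.37), Ndufa3 (-6.68 and -5.42) and Exosc8 (-10.57 and -7.52). Pnma2 and Fam178b were higher in both. Gpr83, by contrast, differed by -1.28 there, but the difference between the comparisons was not called (limma, adjusted p = 0.82).

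A limma test of the difference between the comparisons called 2 of 20610 genes (0.0097%); before adjustment 1012 had a p under 0.05. Coq10a was detected on every GFP-RFP- array, no GFP-RFP+ array, 0 of the 5 GFP+RFP- and 1 of the 4 GFP+RFP+ arrays, so that it was bright in the GFP-RFP- population alone (difference between comparisons -10.46 ± 0.82, SE; limma, adjusted p = 8.6e-06). Msl3 was bright in the other 3 populations, at -1.37 to -3.32 on GFP+RFP- and 0.05 to -1.60 on GFP+RFP+ arrays, and at background on GFP-RFP+ arrays alone (-9.92 ± 0.83, SE; limma, adjusted p = 1.3e-05).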

How the data were processed

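The 19 arrays are 1-colour Agilent arrays, read as deposited. Per the file headers, the authors made the linear intensity values with Agilent Feature Extraction 10.7.3.1, which removed spatial and multiplicative trends within each array and applied no scaling between arrays; local background subtraction was switched off. The log2 values deposited for the whole series are the authors', by a normalization not given in the sources used here. Per the labels, RNA was amplified by a global PCR before Cy3 labelling.

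Control spots (3671 of 62976) and outlier spots (3296 over all arrays) were left out, repeated spots averaged, and 27319 probes named through RefSeq accessions. No spot was saturated. A probe entered if 4 or more arrays marked it well above background (28094 of 55681), and each gene took its brightest probe. Levels are log2 processed signal minus the array's 75th percentile over the 6610 probes detected on all 19 arrays. One limma 3.58.1 model in R 4.3.3 (package data.table, version 1.17.8) covered the 4 groups without a block, with 15 residual degrees of freedom, and was tested on simulated data. Whole-array values were compared by exact permutation (scipy 1.17.1, numpy 2.4.6, pandas 2.3.3, matplotlib 3.10.9, Python 3.11.15). Promoters are from RefSeq.

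Genes named are Foxp3 and Il2, the 10 calls per direction with usual symbols, smallest p and no overlap, those that held under 6 other scalings, and up to 4 members per list; genes outside this rule (Ap1g1, Eif3e, Hprt, Ikzf2, Il2ra, Lck, Ndufa6, Prpf8, Rps6, Tcf7, Thada, Tspan14, transcripts without a usual symbol, the mitochondrially encoded genes and those of the closing groups) were picked with their values in view. The comparison, the 51 gene lists and the named genes were chosen with earlier results of these data known. Some genes are not reported here. Replicate numbers are those in the sample titles, and the main model did not pair samples by them. Whether same-numbered samples came from the same animal is not given in the labels. The alternatives are other scalings, background corrections, filters, blocks, slides and single arrays left out.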

Additional observations from a re-analysis of the deposited data

Results flagged for a closer look

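Among 59 groups of 5 levels tested for the genes described, 11 held an array whose gap to the nearest other exceeded 0.71 of the group's range, and chance gives about 1 in 20. GFP-RFP+ replicate 3 stood above the other GFP-RFP+ arrays for Tmem50a (-3.33), Eif3i (-0.84), Ifit1 (-2.71), Cd79b (-1.07) and Tspan14 (-4.36). GFP-RFP+ replicate 2 stood above the others for Pld5 (-6.53) and Pecam1 (-3.25), and GFP-RFP+ replicate 4 stood below them for Ap1g1 (-6.94). On the GFP-RFP- side replicate 5 was below the others for Exosc8 (-0.77) and Jmjd6 (-6.19), and replicate 4 above them for Psmd8 (-0.23). The cause was not tested.

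Coq10a and Msl3 differed between the comparison among GFP- cells and that among GFP+ cells, by -10.46 and -9.92 on the log2 scale (limma interaction, adjusted p = 8.6e-06 and 1.3e-05). In each case all 5 GFP-RFP- arrays detected the gene and no GFP-RFP+ array did. Among GFP+ arrays, Coq10a was above background on a single one, of GFP+RFP+, whereas every GFP+ array detected Msl3.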

How the results depend on the processing

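The count of 351 calls became 4026 with the percentile over all probes, 3473 with quantile normalization, 3653 with median centring, 4846 with normexp, 3599 with the series table, 707 with a common floor, 540 on probes detected on all 10 arrays, 1235 with slide as a block, 761 with a trended robust prior, 5 with percent detected as a covariate, 27 without arrays under 30% detected and 167 by detection flags. Within slide 1 it was 87. Slides 2 and 3 each held a single array of a group, so calls within them are not counted. The percentile over the 10 arrays' probes, no filter, the mean of probes, the 10 arrays alone (22 higher, 353 lower) and scan day kept it within 298 to 375. Leaving out single arrays of the comparison gave 85 to 1166. Added after seeing the data were no scaling (2017) and leaving out single GFP+ arrays (568 without GFP+RFP- replicate 4, 495 without GFP+RFP+ replicate 5). The replicate block gave 199 calls and, with the percentile over all probes, 4074. Same-numbered arrays correlated at -0.037 to 0.035 in their deviations and other pairs at -0.066 to 0.052. These correlations showed no pairing, but they cannot exclude that same-numbered samples came from the same animal.

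The difference between the Treg comparisons, 2 calls, gave 0 within slide 1 (944 at p under 0.05 before adjustment). It gave 0 on probes detected on all 10 arrays (317) and 4 without arrays under 30% detected. All were added after seeing the data. Single arrays left out gave 2 to 13, the highest without GFP-RFP+ replicate 3. The detection difference was -7.08 points with the weaker flag, and -13.4 to -9.09 with arrays left out; brightness differed by -9083 to -7112 units. For 69 called of the 202 named genes, 2147 values under other settings held 0 reversed calls, 1444 kept the call and 703 lost it; 532 of 4153 values of the other genes gained one. Causes of these shifts were not tested. Differences of genes below background on one side are bounded by the floor of the dim arrays.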

Other observations

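Some small functional groups held several lower calls. These groups were put together after the values were seen and have no test of their own. Among all genes 57.1% were below 0 and 1.23% were called lower, and 45 of the 51 lists had a median below that of all genes. Of 7 measured genes of selenocysteine incorporation 6 were below 0 and 3 were called: Sephs1, a selenophosphate synthetase (-4.86), Secisbp2, which binds the selenocysteine insertion element (-6.61), and Trnau1ap, a partner of the selenocysteine tRNA (at least 26-fold lower). Of 7 class Ib MHC genes 6 were below 0, and H2-T10 (-6.93), H2-T22 (-4.83) and H2-Q8 (-7.54) were called, genes whose near-identical relatives may share the signal. The second probe of Secisbp2 differed by -1.75 and was not called.

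Of 8 writers and erasers of N6-methyladenosine in RNA 7 were below 0, with Mettl14, a subunit of the methyltransferase, at -7.36 and Fto, a demethylase, at least 246-fold lower. All 9 genes of the COPII coat, which carries cargo out of the endoplasmic reticulum, were below 0, and Sec13 (-9.76) and Sec31a (-6.62) were called; the second Sec31a probe was also called, at -8.41. In oxygen sensing 5 of 6 were below 0, with Hif1a at -4.62 and Egln1, the prolyl hydroxylase that marks it for decay, at least 19.1-fold lower. Of the 9 subunits of the RNA exosome 7 were below 0 and Exosc8 was the one called, while Exosc2 and Exosc9 were at 0.61 and 1.06 and above background on all 10 arrays.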
